A study of Mus musculus with 2 samples.

Results

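Expression of 10 genes that protect cells from reactive oxygen species or bind metal ions was followed across single mouse heart muscle cells: the superoxide dismutases Sod1 and Sod2, the peroxide-removing enzymes Cat, Gpx1, Gpx4, Prdx3 and Prdx5, the thioredoxin Txn2, and the metallothioneins Mt1 and Mt2. The genes were chosen by name, and all 10 were found among the 24522 gene IDs of a multichamber study and the 22679 of a live and fixed study. All cells came from adult wild-type C57BL/6 hearts that had been perfused with collagenase and protease. Sorting used a flow cytometer built for large particles. RNA was then read by SCRB-seq, which counts the 3' ends of polyadenylated RNA by unique molecular identifiers (UMIs). The multichamber animals were about 3 months old and their cells, not fixed, carried chamber labels: LA and RA for the left and right atrium, LV and RV for the ventricles, in 4 libraries (A to D). The other study compared ventricular cells sorted live with cells sorted after fixation in cold ethanol.

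A cell was kept from 1000 gene UMIs and 500 genes on. This left 56 of 71 labelled LA, 44 of 69 RA, 91 of 96 LV, 90 of 96 RV, 31 of 36 live and 35 of 36 fixed. Median depth per cell ran from 4436.5 gene UMIs under RA and 16146 under LA to 40953 for LV and 50503 for RV, and was 40367 for live and 77150 for fixed cells. Levels are given as UMIs per 1000000 nuclear-encoded UMIs (CPM). The labels name no animal, so each label is 1 pool, no difference was tested, and each interval printed is a 95% interval for counting error only. The atrial labels went in part against the markers. Nppa, the hormone gene that defines atrial muscle, had 0 UMIs in LA and RA, which allows up to 3.21 and 6.38 CPM. Myl7, Sln and Myl4 were also at 0 in RA. Under LA the atrial markers were mixed. Myl7, the atrial myosin light chain, had 81 UMIs (86.7 CPM, against 1.17 in LV and 0 UMIs in RV). Sln had 7.50 CPM (against 0.39 and 1.00), Stard10 53.5 (against 26.1 and 36.1) and Dkk3 4.28 (against 3.12 and 2.68). Myl4 lay below the ventricular labels, at 2.14 CPM (against 6.24 and 4.35). Summed, the atrial markers made up 0.0154% of nuclear-encoded UMIs under LA and 0.00574% under RA, beside 0.00374% for LV and 0.00445% for RV. In single cells the median share was 0 under LA, RA and LV and 0.00163% under RV. The highest share in a cell was 0.244% under LA, 0.0810% under RA, 0.0494% under LV and 0.0417% under RV. The RA sum came from 25 UMIs of Stard10 and 2 of Dkk3. Myl2, the ventricular myosin light chain, stood at 9322 CPM in LA and 11721 in RA, beside 10497 in LV and 10335 in RV. These cells are therefore called LA-labelled and RA-labelled. The isolation protocol of both studies describes mincing of the excised ventricle. Of 84 short cell barcodes of the multichamber study, 80 recurred in all 4 libraries, and 0 full barcodes were shared between libraries. The 72 barcodes of the other study all recurred among them.

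Heart muscle cells make ATP almost entirely in mitochondria, whose respiratory chain leaks superoxide. Superoxide dismutases turn superoxide into hydrogen peroxide, which catalase, glutathione peroxidases and peroxiredoxins remove, and thioredoxins reduce peroxiredoxins again. Metallothioneins are small cysteine-rich proteins that hold zinc and copper, and their genes are classical targets of the zinc-sensing factor MTF1, which binds metal response elements, and of glucocorticoid hormone.

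Since 1 tag stands for 1 RNA molecule whatever its length, levels were set side by side between genes without division by length. Reads per UMI differed between genes, from 1.70 to 2.36 for Mt2 to 7.13 to 9.57 for Sod1 under the chamber labels. The part of this in the order of levels was not tested. Levels were not compared between the studies. The 10 genes together made up 2852 CPM in LA-labelled, 3008 in RA-labelled, 2733 in LV and 2854 in RV cells, and 1576 CPM in live and 1511 in fixed cells.

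The mitochondrial superoxide dismutase Sod2 and the peroxiredoxin Prdx5 were the most abundant of the 10 genes in all 4 multichamber labels, followed by Mt1 and Sod1. Sod2 (chr17:13006846-13040063, GRCm38) stood at 609 CPM in LA-labelled, 670.1 in RA-labelled, 587 in LV and 603 in RV cells. Prdx5 (chr19:6906697-6910106, minus strand), which reduces peroxides in mitochondria, peroxisomes and cytosol, stood at 586, 536, 542 and 604 CPM in the same order. Their intervals overlapped in each of these labels, so neither was set above the other. Mt1 was next at 425, 459, 415 and 401 CPM, and in RA-labelled cells its interval overlapped that of Prdx5. The cytosolic copper and zinc dismutase Sod1 (chr16:90220754-90226329) had 321, 349, 359 and 383 CPM. The intervals of Mt1 and Sod1 overlapped in RA-labelled and RV cells but not in LA-labelled and LV cells. In the live and fixed study Mt1 led instead, with 534 CPM in live and 347 in fixed cells, above Sod2 with 259 and 287. These orders count Gpx4 without its processed copy, which is described below.

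The remaining genes formed a lower band whose neighbours mostly overlapped. Gpx4 (chr10:80047166-80056439), the glutathione peroxidase that removes lipid peroxides from membranes, had 185 CPM in LA-labelled, 179 in RA-labelled, 189.8 in LV and 209 in RV cells. The mitochondrial thioredoxin Txn2 (chr15:77915047-77929006, minus strand) had 189.6, 213, 207 and 190.4 CPM. The mitochondrial peroxiredoxin Prdx3 (chr19:60864051-60874556, minus strand) had 149, 168, 159.8 and 161 CPM. Cat (chr2:103453849-103485160, minus strand), the catalase of peroxisomes, had 137, 174, 145 and 141 CPM. Gpx1 (chr9:108338903-108340343), the main cytosolic glutathione peroxidase, had 228 CPM in LA-labelled, 228 in RA-labelled, 102 in LV and 142 in RV cells. Its place in the order thus ran from the fifth in both atrial labels to the ninth in LV. Mt2 was lowest in all 4 labels, with 21.4, 31.9, 24.9 and 18.7 CPM from 20, 15, 64 and 56 UMIs. In live and fixed cells, Gpx1 with 11.5 and 23.5 CPM and Mt2 with 44.5 and 23.1 CPM were the lowest of the 10 genes.

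Mt1 differed little between libraries of the ventricular labels. Mt1 stood at 434, 387, 437 and 398 CPM in LV cells of libraries A to D and at 386, 358, 446 and 399.8 CPM in RV cells. Prdx5 ran from 462 to 622 CPM over the LV libraries and from 526 to 638 over the RV ones, and Sod2 from 444 to 831 and from 440 to 698. In the shallower atrial labels the libraries lay further apart. Txn2 stood at 245, 134, 18.2 and 618 CPM in LA-labelled cells of libraries A to D, and at 479.8, 0, 169 and 243 CPM in RA-labelled cells. Sod1 ran from 120 CPM in library D to 345 in C under LA. Single cells with at least 20000 UMIs spanned a wide range for each of these genes. In LV cells Mt1 ran from 38.2 to 1214 CPM with a median of 391, Sod2 from 58.0 to 1770 with a median of 521, and Txn2 from 0 to 771 with a median of 182.

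**Figure D1:**
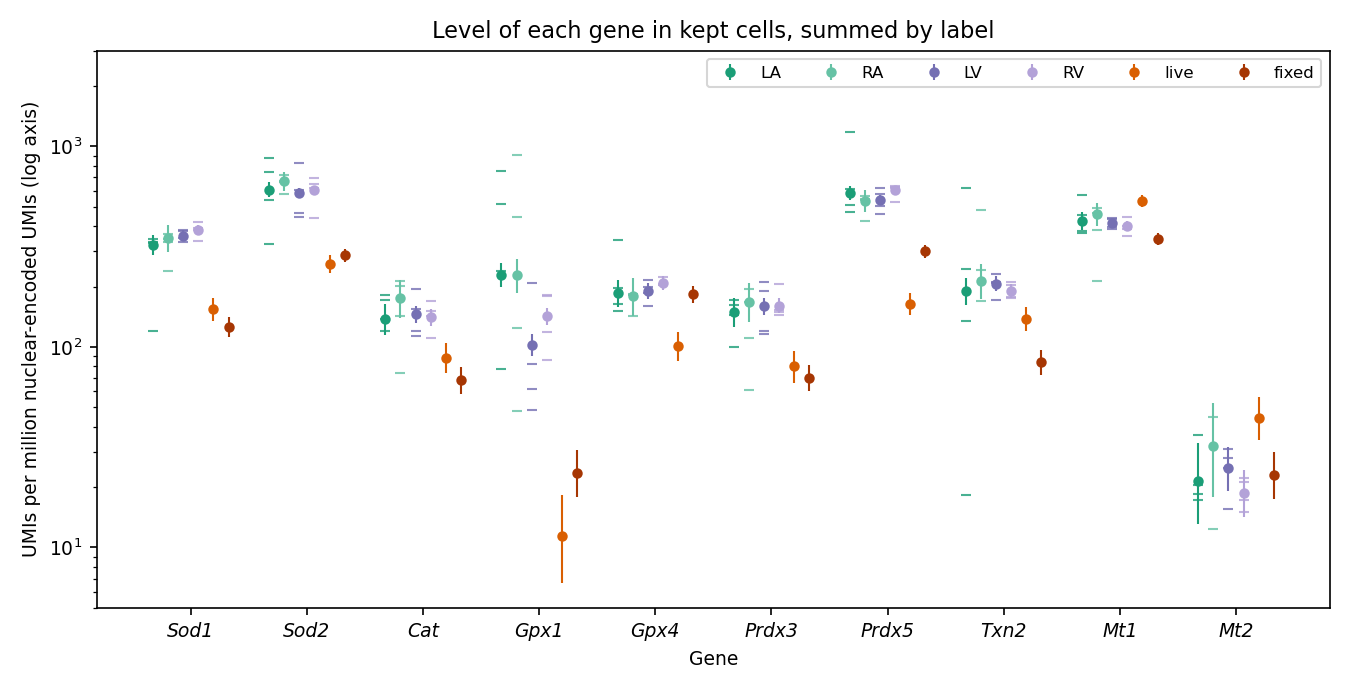
Level of each of the 10 genes in kept cells summed by label, in CPM on a log axis. Points are pools with 95% counting intervals, and short dashes are single libraries of the multichamber study, those at 0 not drawn. Mt2 lies below the other genes in the 4 chamber labels, and Gpx1 shows library values from 47.8 to 910 CPM.

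Mt1 and Mt2 lie side by side on chromosome 8 on the same strand, Mt2 at chr8:94172664-94173568 and Mt1 at chr8:94179082-94180327, with 5513 bases between them. Their promoter windows run from 250 bases before to 50 bases after the gene start in RefSeq, which differs by some bases from the start given above. They are shown because both hold repeated matches to the core of the metal response element. As the windows were picked for these matches, the shares over all windows below are a description and no test. The sequences are from RefSeq (GRCm38.p6), on the plus strand, at chr8:94178839-94179138 for Mt1 and chr8:94172368-94172667 for Mt2. Capitals mark matches to TGCACNC or TGCGCNC on either strand.
Mt1: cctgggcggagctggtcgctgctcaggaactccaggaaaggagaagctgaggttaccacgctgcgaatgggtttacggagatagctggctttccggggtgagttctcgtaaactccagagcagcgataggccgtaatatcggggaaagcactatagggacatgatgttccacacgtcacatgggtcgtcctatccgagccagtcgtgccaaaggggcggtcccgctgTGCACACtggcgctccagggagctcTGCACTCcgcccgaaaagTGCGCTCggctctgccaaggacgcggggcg
Mt2: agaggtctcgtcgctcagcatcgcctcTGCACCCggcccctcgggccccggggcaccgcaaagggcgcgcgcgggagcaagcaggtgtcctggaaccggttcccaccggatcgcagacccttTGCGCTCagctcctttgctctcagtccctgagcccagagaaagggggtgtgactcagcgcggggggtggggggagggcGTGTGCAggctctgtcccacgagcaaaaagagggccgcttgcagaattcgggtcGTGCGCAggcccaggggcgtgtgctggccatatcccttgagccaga
The Mt1 window held 3 matches, all on the plus strand, and the Mt2 window held 4, of which 2 were on each strand. Of 32851 promoter windows of 300 bases, 25.7% held at least 1 such match, 1.97% at least 3 and 0.517% at least 4. No window of the other 8 genes held a match. The core of the antioxidant response element, searched as TGACNNNGC or TGATNNNGC on both strands, occurred once each in the windows of Mt2 and Sod1 and in 19.6% of all windows. These letters are a description of the sequence and show no binding.

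Between LA- and RA-labelled cells together and LV and RV cells together, 9 of the 10 genes differed by less than 1.5-fold and Gpx1 was higher. A gene was counted as apart from a 1.5-fold difference on, after adding 5 CPM to both levels, among genes with at least 30 UMIs over both pools. By that rule 27.7% of 11682 genes were apart, 12.6% higher and 15.1% lower in the atrial labels, and the median log2 difference was -0.06 over all genes and 0.03 over the 10. Sod2 had a ratio of 1.06 (0.980 to 1.14), Prdx5 of 0.989 (0.914 to 1.07), Mt1 of 1.07 (0.979 to 1.17) and Txn2 of 0.997 (0.871 to 1.14). Sod1 was the lowest of the 10 at 0.888 (0.801 to 0.983), and its ratio was below 1 in each of the 4 libraries. The library intervals covered 1 in A (0.731 to 1.08), B (0.711 to 1.03) and C (0.801 to 1.15). That of D did not (0.323 to 0.879), from 18 atrial-labelled UMIs. The narrow pooled intervals did not cover the spread between libraries. The ratio of Txn2 ran from 0.634 in library B to 2.39 in library D, and that of Prdx5 from 0.840 in C to 1.65 in D.

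Gpx1 was 1.84-fold higher (1.61 to 2.10) in the atrial labels, from 320 against 688 UMIs. Its ratio was 1.43 in library A, 0.996 in B, 1.63 in C and 9.49 in D. Within LA-labelled cells its level ran from 77.4 CPM in library B to 755 in D, within RA-labelled cells from 47.8 in B to 910 in D, within LV cells from 48.3 in D to 209.5 in A, and within RV cells from 86.3 in B to 181 in A. LA and RA both lay above LV and RV in libraries A and D, LA alone in C, and neither in B. In cells with at least 20000 UMIs the medians were 40.4 CPM in LA-labelled (0 to 966, 24 cells), 58.1 in RA-labelled (0 to 284, 9 cells), 58.6 in LV (0 to 700.2, 76 cells) and 77.7 CPM in RV (0 to 922, 80 cells). The 4 ranges overlapped from 0 upward and the atrial medians were not above the ventricular ones. In these cells alone the pooled log2 difference was 0.23, in place of 0.85, and without library D it was 0.44. Neither reached 1.5-fold.

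Transcripts of red blood cells, in which Gpx1 is also active, moved with Gpx1 between cells split by their erythroid share, but not across all libraries. A list of 8 erythroid markers, haemoglobins among them, took 2.69% of nuclear-encoded UMIs in LA-labelled, 5.01% in RA-labelled, 1.21% in LV and 1.31% in RV cells, and none of the 8 was at 0. Its share reached 8.67% in LA-labelled and 21.2% in RA-labelled cells of library D, where Gpx1 was highest under both labels. Other libraries did not follow this order. In RA-labelled cells of library B the share was 7.63% and Gpx1 was lowest, at 47.8 CPM. In LV and RV cells Gpx1 was highest in library A, where the shares were 0.958% and 0.918%, against 1.02% and 1.71% in D. In RA-labelled cells Gpx1 stood at 518 CPM (415 to 640.0) in the 35 cells with over 2% erythroid UMIs and at 69.0 CPM (42.7 to 106) in the 9 others. In RV cells the values were 271 CPM (224 to 325) in 15 cells and 121 CPM (108 to 135) in 75. In LA-labelled cells they were 304 CPM (241 to 379) in 26 and 198 CPM (166 to 235) in 30, and in LV cells 132 CPM (103 to 167) in 20 and 94.6 CPM (81.7 to 109) in 71. The value was higher in the cells with more erythroid UMIs under all 4 labels, with overlapping intervals in LV. In RA the split also went with depth, with 165940 nuclear-encoded UMIs in the 35 cells and 304155 in the 9. Other genes differed there too, Prdx3 with 54.2 CPM (24.8 to 103) against 230.1 CPM (179 to 291). A rise was not particular to Gpx1. In LA-labelled cells over 2%, Cat had 213 CPM (161 to 277) against 107 CPM (84.0 to 135). Txn2 had 259 CPM (201 to 328) against 163 CPM (133 to 196). Other labels went the other way, with Cat at 67.8 against 153 CPM in RV and Txn2 at 157 against 243 in RA. In cells with at most 2% erythroid UMIs, Sod1 stood at 362 CPM (325 to 402) in the atrial and 378 CPM (361 to 397) in the ventricular labels. In cells over 2% it stood at 259 CPM (213 to 312) and 342 CPM (306 to 381). Leaving out cells with over 2% of UMIs from non-myocyte markers lowered the atrial to ventricular log2 difference of Gpx1 from 0.85 to 0.51. Over 156 LV and RV cells with at least 20000 UMIs, the erythroid share and Gpx1 had a correlation of 0.21 after library and label means were removed, and over all 100 atrial-labelled cells 0.09. The part of these transcripts in the Gpx1 difference was not tested.

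**Figure D2:**
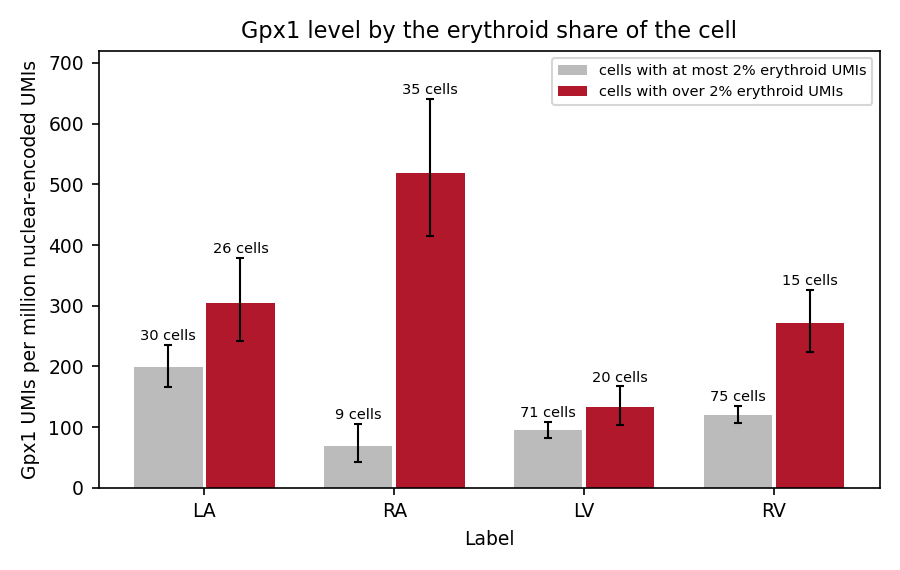
Gpx1 level, in CPM, in cells with at most 2% and with over 2% of UMIs from 8 erythroid markers, under the 4 chamber labels. Bars are pooled levels, whiskers are 95% counting intervals and the number of cells is printed above each. The bar for cells over 2% is the higher under each label, and the gap is widest in RA-labelled cells, 518 against 69.0 CPM.

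Between LA- and RA-labelled cells 0 of the 10 genes were apart, where 43.9% of 5715 genes were, 28.5% higher and 15.5% lower in LA. The median log2 difference was 0.10 over all genes and -0.13 over the 10. Ratios of LA over RA ran from 0.671 (0.327 to 1.41) for Mt2, with 20 and 15 UMIs, to 1.09 (0.940 to 1.27) for Prdx5. Gpx1 had a pooled ratio of 1.00 (0.791 to 1.28) that its libraries did not share, with 0.540 in A, 1.62 in B, 4.17 in C and 0.830 in D. Its log2 difference was 0.72 in cells with at least 5000 UMIs, 0.85 with at least 20000, 1.50 without cells over 2% non-myocyte UMIs and -1.18 without library C. Txn2 likewise had 0.891 pooled, 0.512 in A, 0.108 in C and 2.55 in D. With 733462 gene UMIs, the RA-labelled pool was the smallest, and the intervals of Cat, 0.786 (0.591 to 1.05), and Mt2 reached past 1.5-fold lower.

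Between LV and RV cells 0 of the 10 genes were apart, where 18.5% of 10812 genes were, 11.4% higher and 7.18% lower in LV. The median log2 difference was 0.03 over all genes and -0.02 over the 10. Mt1 had a ratio of 1.03 (0.951 to 1.12) with 0.980 to 1.12 in the 4 libraries, the narrowest library range of the 10. Sod1 had 0.938 (0.859 to 1.02), Sod2 0.974 (0.909 to 1.04), Prdx3 0.993 (0.868 to 1.13) and Cat 1.03 (0.897 to 1.19). Prdx5 at 0.898 (0.837 to 0.963) was lower in LV beyond counting error, but its libraries lay from 0.735 to 1.10. Gpx1 was furthest from 1 at 0.721 (0.616 to 0.843), with 1.16, 0.715, 0.458 and 0.409 in libraries A to D. Without library A its log2 difference moved from -0.45 to -0.99, past the 1.5-fold limit. Mt2 was above 1 in all 4 libraries, from 1.03 to 1.61, with a pooled ratio of 1.33 (0.915 to 1.94) from 64 and 56 UMIs.

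**Figure D3:**
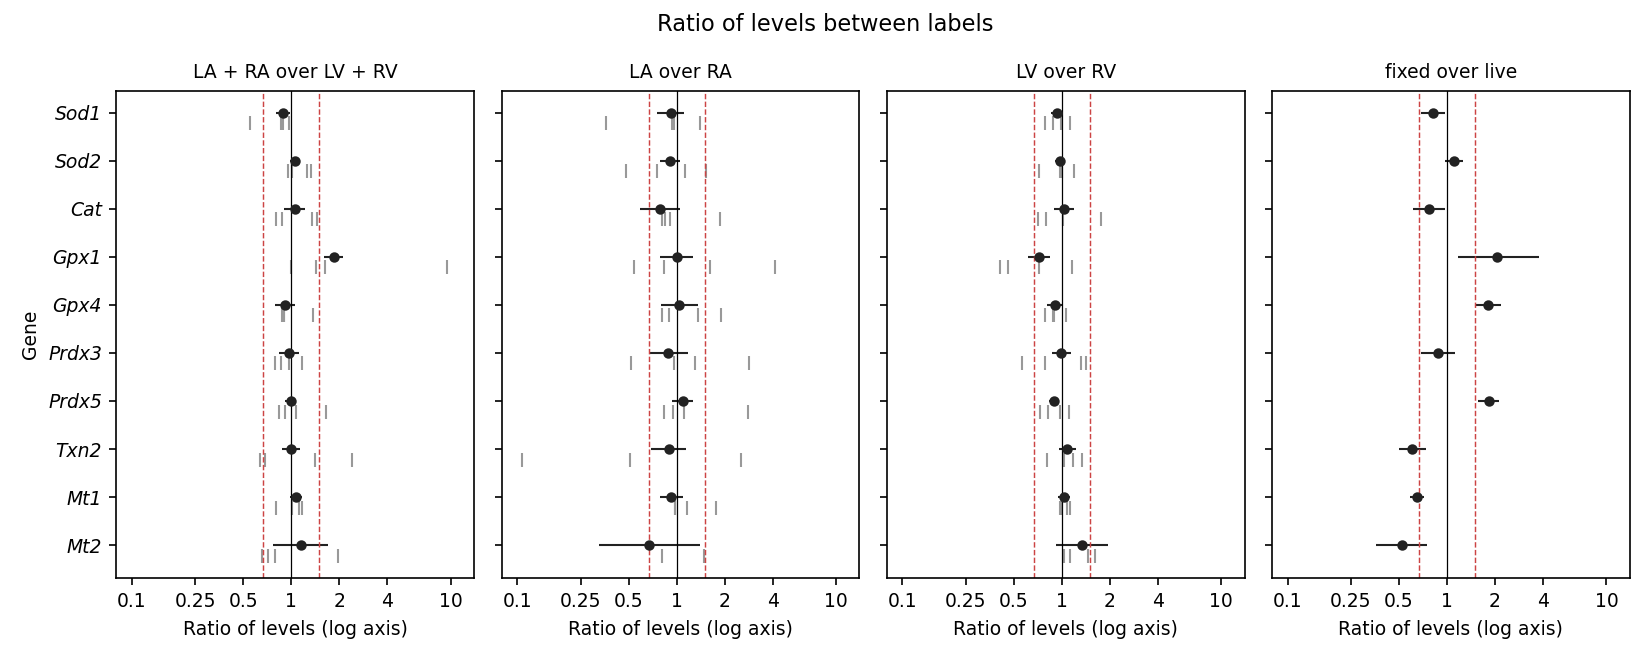
Ratio of levels for the 10 genes in the 4 comparisons, on log axes. Points are pooled ratios with 95% counting intervals, grey ticks are single libraries of the multichamber study (ratios of 0 or without a denominator not drawn), the black line marks 1 and the dashed red lines 1.5-fold. Of the pooled points, only Gpx1 passes the dashed lines among the chamber comparisons, and 6 genes pass them between fixed and live cells. Single libraries of other genes pass them too.

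Prdx5, Gpx4 and Gpx1 were higher in fixed than in live cells, and Mt1, Mt2 and Txn2 were lower on the main scale. Of the 10 genes 6 were apart between fixed and live cells, 3 higher and 3 lower in fixed cells. Of 7860 genes 41.3% were apart, 7.54% higher and 33.8% lower, with a median log2 difference of -0.31 over all genes and -0.23 over the 10. A log2 difference near this median is the common value on this scale. The 3 lower of the 10 genes were near the 33.8% over all genes and are not read as a trait of the 10. Fixed and live cells also differed in depth, in the median share of mitochondrially encoded UMIs (13.8% against 26.1%), in the erythroid list (0.00289% against 0.0544%, with Slc4a1 at 0 in fixed cells) and in 12 immediate-early genes (0.0699% against 0.182%). The part of these in the differences was not tested.

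Prdx5 was at 164 CPM in live and 299.8 in fixed cells, a ratio of 1.82 (1.58 to 2.12). In single cells with at least 20000 UMIs it ran from 0 to 569 CPM with a median of 134 in 23 live cells and from 0 to 656 CPM with a median of 311 in 34 fixed cells. Gpx4 was at 101 and 183 CPM, a ratio of 1.81 (1.50 to 2.19), with single-cell medians of 88.9 CPM (0 to 454) and 139 CPM (39.9 to 471). Live and fixed cells overlapped over most of both ranges. Gpx1 had 17 UMIs in live and 57 in fixed cells, a ratio of 2.05 (1.18 to 3.76), and both single-cell medians were 0. Of the 17 live UMIs 76.5% came from 1 cell. Relative to the median of all genes, the log2 differences were 1.16 for Prdx5, 1.13 for Gpx4 and 1.10 for Gpx1. Prdx5 stayed above 1.5-fold in all 16 settings tried, Gpx4 in 15 and Gpx1 in 14.

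Mt1 was at 534 CPM (498 to 573) in live and 347 CPM (324 to 371) in fixed cells, a ratio of 0.649 (0.588 to 0.716). Its single-cell median was 505 CPM (129 to 1305) in live and 341 CPM (50.3 to 915) in fixed cells. Mt2 was at 44.5 and 23.1 CPM, a ratio of 0.519 (0.357 to 0.753) from 66 and 56 UMIs, and Txn2 at 138 and 83.7 CPM, a ratio of 0.606 (0.497 to 0.739). Highest cells of all 3 genes were live ones, but the ranges overlapped. Relative to the median of all genes, the log2 differences shrank to -0.30 for Mt1, -0.50 for Mt2 and -0.38 for Txn2, all under 1.5-fold. All 3 genes fell short of 1.5-fold with all UMIs as the total, with edgeR TMM, with median-of-ratios scaling and in read counts, while their direction stayed. Of 16 settings Txn2 passed the limit in 12, and Mt1 and Mt2 in 11. These scalings moved the median of all genes from -0.31 to -0.10, 0.09, 0.15 and -0.15, and split the 10 genes into 3 higher and 0 lower, 4 and 0, 4 and 0, and 3 and 0.

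The other 4 genes were less than 1.5-fold apart, with ratios of 0.818 (0.687 to 0.975) for Sod1, 1.10 (0.974 to 1.25) for Sod2, 0.771 (0.609 to 0.977) for Cat and 0.874 (0.688 to 1.11) for Prdx3. Relative to the median of all genes their log2 differences were 0.03, 0.45, -0.04 and 0.13. With each cell weighted equally Prdx3 passed the limit at -0.78, while Gpx4 at 0.30 and Mt1 at -0.50 did not, and Sod2 passed it, higher, with edgeR TMM and median-of-ratios. Among the mitochondrial members on the main scale, Prdx5 was higher, Txn2 lower, and Sod2 and Prdx3 were under 1.5-fold. With edgeR TMM and median-of-ratios scaling Prdx5 and Sod2 were higher, while Txn2 and Prdx3 were under 1.5-fold.

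**Figure D4:**
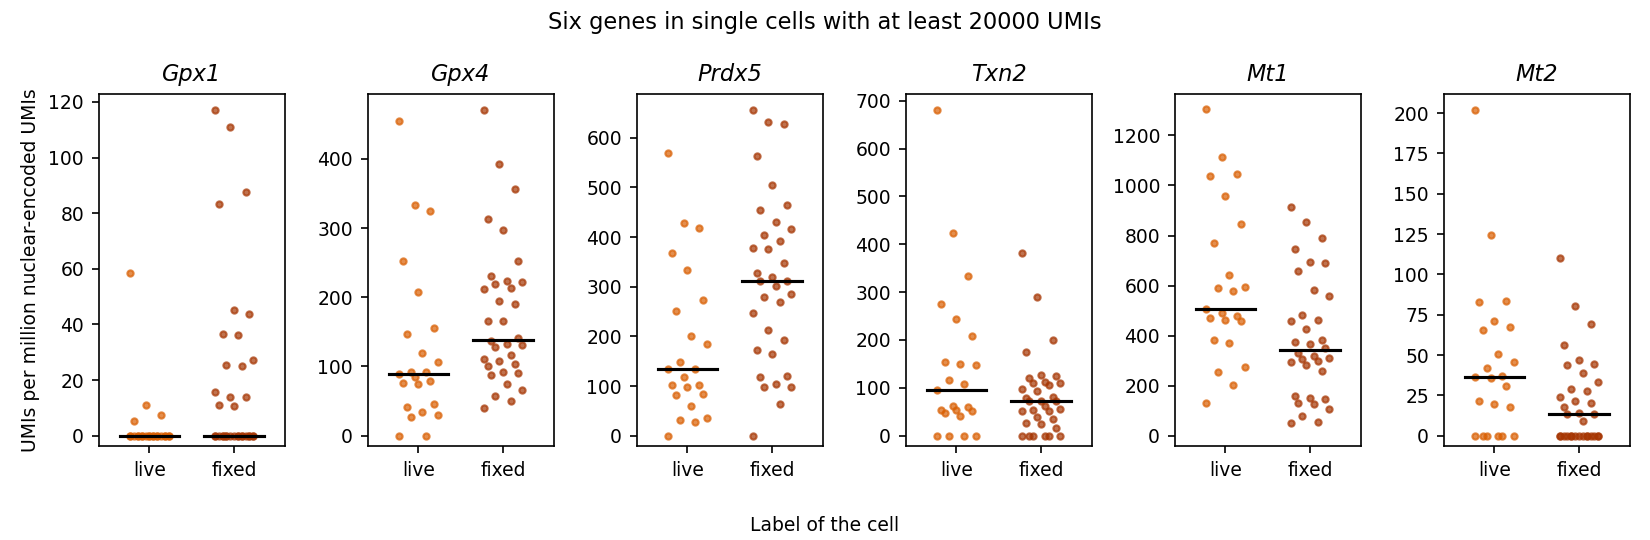
Levels of the 6 genes that were apart, in CPM, in single live (23) and fixed (34) cells with at least 20000 UMIs. Each point is a cell and the black line is the median; the vertical axes differ between genes. The medians of Prdx5 are 134 and 311 and those of Mt1 505 and 341, with overlap in every panel.

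Counts of Gpx4 have a limit. A processed copy, Gpx4-ps2, shared 627 stretches of 50 bases with Gpx4 transcripts and carried UMIs of its own. Gpx4 was 44.6 to 52.2% of the sum of both in the 4 chamber labels, and 23.3% in live and 25.8% in fixed cells. The sum stood at 387 CPM in LA-labelled, 342 in RA-labelled, 425 in LV and 457 in RV cells. In live and fixed cells it was 435 and 709 CPM, the latter above Mt1 at 347. The place of Gpx4 in the order of levels thus depends on the copy. For the sum, the fixed to live ratio was 1.63 (1.49 to 1.79) and the atrial to ventricular ratio 0.840 (0.763 to 0.924). How the counting assigned reads that match both is not given in the sources used here. Sod2 shared 1599 such stretches with transcripts of Rps6ka2, at 12.8 to 32.5 CPM, and 1762 with AC166110.4, at 0 UMIs under all labels. Sod1 shared 137 such stretches with the processed pseudogene Gm8566, at 21.4 to 46.5 CPM. Sod1 overlaps Scaf4 by 650 bases, Prdx5 overlaps Trmt112 by 409 and Mt2 overlaps Gm45774 by 749, each on the opposite strand, and strand use in the counting is likewise not given. These 3 neighbours stood at 0 to 37.8 CPM under all labels.

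Spread between ventricular cells was lowest for Mt1 and highest for Gpx1 and Cat. The coefficient of variation (CV) of a gene's share of UMIs over the 181 LV and RV cells was computed after the variance expected from counting alone had been subtracted. It was 0.40 for Mt1, 0.51 for Prdx5, 0.52 for Sod2, 0.53 for Sod1, 0.60 for Gpx4, 0.63 for Txn2, 0.88 for Prdx3, 1.30 for Gpx1 and 2.38 for Cat. The median over 2651 genes with at least 50 CPM was 1.09. This CV falls with a gene's level, so each gene was also set beside genes within 1.5-fold of its level. Of 271 genes at the level of Mt1, 5.54% had a lower CV, and of 865 at the level of Gpx1, 79.1% had. Sod2 and Prdx5 had 38.2% and 30.5% below them. The value of Cat was 3.27 in library A and 0.61 to 0.89 in the others. In 1 LV cell of library A, 9 of 1576 nuclear-encoded UMIs were Cat. In cells with at least 20000 UMIs Cat had 0.84, Mt1 0.43, with 13.3% of 271 genes at its level below it, and Gpx1 1.24. Within single libraries Mt1 ran from 0.31 to 0.50 and Gpx1 from 0.81 to 1.83. In live and fixed cells Mt1 was not low for its level: it had 0.52 in each, with 36.6% of 145 and 49.1% of 159 genes of like level below it. Mt2, at 0.54 in all kept cells and 0.77 in the deep ones, was below the 50 CPM limit and had 0.75 UMIs per deep cell on average.

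**Figure D5:**
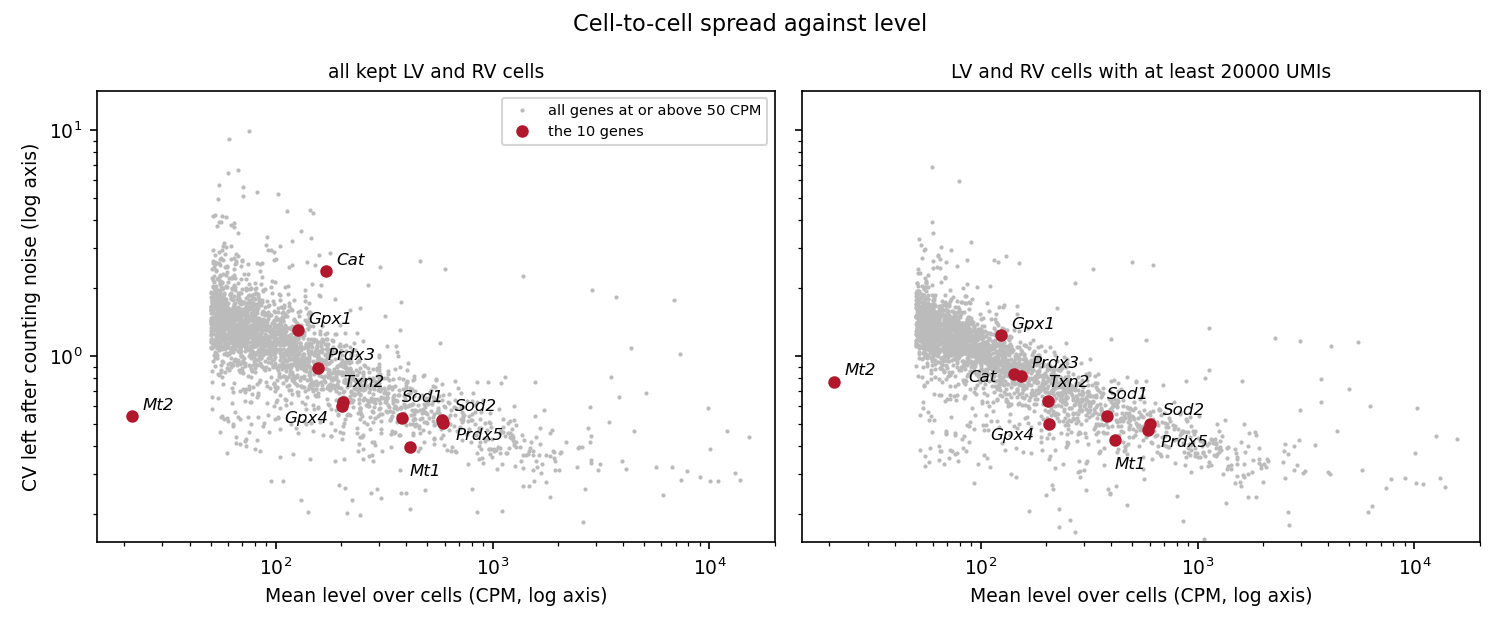
CV left after counting noise against mean level in CPM, both on log axes, for LV and RV cells; grey points are all genes with at least 50 CPM and a value above 0, red points the 10 genes. Mt1 lies below the middle of the genes at its level and Gpx1 above it in both panels, while Cat moves from 2.38 to 0.84 when only cells with at least 20000 UMIs are used.

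Across the same 156 deep LV and RV cells, levels on a log2 scale with 50 CPM added were correlated after library and label means were removed. The cells share libraries, and the values are given as a description. Of 2371 genes with at least 2 UMIs per cell on average, those most like Mt1 were Myl2, the ventricular myosin light chain (r 0.47), Usmg5, a small subunit of ATP synthase (0.46), and Ndufa3, a subunit of respiratory complex I (0.46). The values were 0.44, 0.46 and 0.42 in LV and 0.50, 0.47 and 0.50 in RV, and the median size of r with Mt1 over all genes was 0.09. Over single libraries the value for Mt1 with Myl2 had a standard deviation of 0.27. With the sum of 10 ventricular muscle markers, Myl2 among them, Mt1 had 0.32. Sod2 with 0.42 and Prdx5 with 0.38 were above it, and Gpx1 was lowest with 0.005. Mt1 and Mt2 had a correlation of 0.12. Among pairs of the 10 genes the highest were Sod2 with Prdx5 at 0.34 and Gpx4 with Prdx5 at 0.31. For Mt2, with 0.75 UMIs per cell on average, the nearest genes were 1110008P14Rik (r 0.31), Gm37009 and Psmd8. For Cat, with 4.88 UMIs per cell, they were Olfr620 (0.31), Sgta and Mrpl17. Neither set was read as a pattern.

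Around the 10 genes stand 66 others on 6 lists: superoxide and peroxide removal, thioredoxin and glutaredoxin, glutathione, the antioxidant regulator Nrf2 with its targets, metal handling, and glucocorticoid response. Between fixed and live cells 49 could be measured, and 9 were higher and 10 lower, where 7.54% of all genes were higher and 33.8% lower. Prdx2, a cytosolic peroxiredoxin, was higher at 277 against 175 CPM (ratio 1.58, 1.37 to 1.83), Txn1, the cytosolic thioredoxin, at 104 against 52.6 CPM (1.97, 1.52 to 2.57), the quinone reductase Nqo1 at 52.0 against 23.6 CPM (2.20, 1.50 to 3.30) and the ferritin light chain Ftl1 at 258 against 158 CPM (1.63, 1.40 to 1.91). Keap1, which holds Nrf2 in check, had 47 against 7 UMIs, a ratio of 4.11 (1.85 to 10.8). Of 10 measured glutathione genes 3 were lower, near the 33.8% over all genes. These were both subunits of the enzyme that starts glutathione synthesis, Gclc with 3 against 64 UMIs (ratio 0.0287, 0.00576 to 0.0877) and Gclm with 15 against 28 (0.328, 0.163 to 0.635), and the cystine importer Slc7a11 with 17 against 43 (0.242, 0.129 to 0.433). Nfe2l2, which encodes Nrf2, had 43 against 54 UMIs (0.487, 0.319 to 0.741). The thioredoxin inhibitor Txnip (0.581) and the zinc importer Slc39a14 (0.306) were lower too.

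The split depended on the total. The counts were 13 higher and 7 lower with all UMIs, 19 and 5 with edgeR TMM, and 23 and 5 with median-of-ratios. Under these totals Nfe2l2 had log2 differences of -0.63, -0.45 and -0.40, in place of -0.86, and Txnip of -0.52, -0.28 and -0.22, in place of -0.77. Prdx2, Txn1, Nqo1, Ftl1, Keap1, Gclc, Gclm, Slc7a11 and Slc39a14 were at least 1.5-fold apart in the same direction under each of them. The abundant ferritin heavy chain Fth1 (ratio 0.973, 0.920 to 1.03) and the glutathione transferase Mgst3 (1.06, 0.917 to 1.24) stayed close to 1. Of the glucocorticoid list Per1 was higher (2.89, from 66 against 14 UMIs) and Klf9 lower (0.456, 0.339 to 0.613), while Pdk4 had 0.774 (0.715 to 0.839).

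Between the atrial and ventricular labels 8 of 61 measured genes were higher and 3 lower, where 12.6% and 15.1% of all genes were. Gpx3, the secreted glutathione peroxidase, was 4.67-fold higher (4.22 to 5.16) and the metal importer Slc39a8 17.5-fold (11.4 to 27.9), but Gpx3 had ratios of 1.02, 6.90, 4.90 and 0.339 in libraries A to D. In LA-labelled cells 1 cell gave 50.7% of the Gpx3 UMIs and 1 cell 74.3% of those of Slc39a8. Markers of mesothelium, the layer that covers the heart, took 0.179% of UMIs in LA-labelled cells, 0.0194% in RA-labelled and under 0.01% in LV and RV cells. Without the 3 atrial-labelled cells over 0.5% mesothelial UMIs the counts were 4 higher and 7 lower, Gpx3 had a log2 difference of 0.46 and Slc39a8 of -0.10, and Nfe2l2 went from 0.76 to -0.71. Among the 10 genes the same step left Gpx1 as the 1 gene apart, at 0.64. Gsta4, a glutathione transferase for lipid peroxidation products, was 1.75-fold higher (1.47 to 2.08), above 1 in all 4 libraries and at a log2 difference of 0.68 without those cells. Ftl1 was 1.59-fold higher (1.50 to 1.70), at 0.45 without them. In RA-labelled cells 1 cell gave 55.6% of the 72 Gsta4 UMIs, and in LA-labelled cells 1 cell gave 17.2% of 116. For Ftl1 the top cell gave 39.3% under RA and 19.6% under LA.

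Between LV and RV cells 3 of 59 measured genes were higher and 3 lower, where 11.4% and 7.18% of all genes were. Errfi1, an inhibitor of epidermal growth factor receptors that glucocorticoids induce, was 4.59-fold higher in LV (2.66 to 8.34) from 67 and 17 UMIs, and above 1 in all 4 libraries. Its UMIs lay in 12 of 91 LV cells and 11 of 90 RV cells, with 14 and 6 UMIs in the top cells. The difference thus lay in UMIs per carrying cell and not in the number of such cells. Ccs, which loads copper onto Sod1, was 2.08-fold higher (1.41 to 3.11), with 3.99, 0.575, 3.19 and 7.95 in libraries A to D. Sgk1, a kinase gene induced by glucocorticoids, was lower at a ratio of 0.569 (0.388 to 0.825), with 1.81 in library A and 0.300 to 0.559 in the others. Between LA- and RA-labelled cells 11 of 48 were higher and 7 lower, where 28.5% and 15.5% of all genes were, and without cells over 0.5% mesothelial UMIs 7 of 42 were higher and 4 lower.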

How the data were processed

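The authors deposited raw counts, as a UMI table and a read table of genes by barcodes in each study, and tables that give each barcode's chamber or fixation label and library. The submitters' processing notes name STAR 2.5.4b, featureCounts and GRCm38. The sources used here do not give the annotation, the strand setting, the handling of multiple matches or the way UMIs were collapsed. Of the gene IDs, 24489 and 22648 matched a GENCODE M21 symbol. The 45 barcode columns without a label were left out. UMIs of kept cells were summed per label and divided by the UMIs of all genes outside the mitochondrial genome. Intervals (95%) of levels and ratios are exact Clopper-Pearson ones; they cover counting error only, not PCR or library error. Depth per label was 733462 to 5259330 gene UMIs. No doublet caller was run, and cells are not replicates.

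The 10 genes, the lists, the alternatives and the naming rule were chosen with earlier results of these data known. The rule named all 10 genes and, of each list, the 2 most abundant genes and up to 4 of those at least 1.5-fold apart, from which the text gives examples, and for Mt1, Mt2 and Cat (the largest CV of the other 8) the 3 genes most correlated. As alternatives, levels were recomputed from read counts, with all UMIs as the total, with median-of-ratios or edgeR TMM scaling, with cells weighted equally, with other pseudocounts, with other minimums for cells and genes, and without each library, each gene's top cell or non-myocyte-rich cells. Leaving pseudogenes and ribosomal RNA out of the total, leaving out cells over 0.5% mesothelial UMIs, and summing Gpx4 with its copy were added after the data were seen. The procedure was tested on simulated data. Promoter windows are from RefSeq. R 4.3.3 with edgeR 4.0.16 gave the TMM factors. All else ran in Python 3.11.15 with scipy 1.17.1 and pandas 2.3.3, and numpy 2.4.6; figures were drawn with matplotlib 3.10.9.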

Additional observations from a re-analysis of the deposited data

How the results depend on the processing

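Counts of the 10 genes apart changed as follows. Between atrial and ventricular labels the count of 1 became 3 with equal weight per cell, with Gpx1 higher and Gpx4 and Mt2 lower, and 0 with at least 20000 UMIs, without cells over 2% non-myocyte UMIs and, among the 4 single libraries left out, 0 without library D and 1 without each other library. Between LA- and RA-labelled cells the count of 0 became 2 with equal weight per cell, 1 with at least 5000 UMIs, 1 with at least 20000, 1 without non-myocyte-rich cells and 1 without library C (0 without each other library). Between LV and RV the count of 0 became 2 with equal weight per cell, 1 in read counts, 1 without each gene's top cell and 1 without library A (0 without each other library). Between fixed and live cells the count of 6 became 3 with all UMIs as the total and 3 in read counts (Gpx1, Gpx4 and Prdx5), 4 with edgeR TMM and 4 with median-of-ratios (these and Sod2), 4 with 20 CPM added (without Gpx1 and Mt2), 5 with a minimum of 100 UMIs (without Gpx1) and 5 with equal weight per cell (without Gpx4 and Mt1, with Prdx3 lower). The cause of these changes was not tested. In the settings tried, no gene apart in its main comparison changed sign. The median CV of the 10 genes, 0.573, lay between 0.559 and 0.587 in the alternatives. For the chamber labels, which share libraries A to D, ratios within each library are given above; no test paired by library was run. For fixed and live cells no paired analysis was possible because their labels name no shared library or replicate. Depth limits Mt2 (15 to 66 UMIs per label) and Gpx1 in live cells (17 UMIs).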

Other observations

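Reads per UMI differed between the genes within the multichamber study. Mt2 had 1.70 to 2.36 reads per UMI under the 4 chamber labels and Gpx4 2.61 to 2.90. Mt1 had 4.45 in LV and 4.57 in RV cells, while Sod1 had 7.13 to 9.57 and Prdx5 7.15 to 8.81. In live and fixed cells Mt2 had 6.42 and 7.68, Gpx4 5.66 and 5.85 and Mt1 15.4 and 14.8, beside 21.7 and 21.9 for Sod1.

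Gpx4-ps2 held more UMIs than Gpx4 in 5 of the 6 labels, with 495 against 150 in live, 1275 against 443 in fixed, 604 against 487 in LV, 741 against 626 in RV and 188 against 173 in LA-labelled cells. In RA-labelled cells it held 77 against 84. The ratio of fixed to live was 1.58 (1.42 to 1.75) for the copy alone and 1.81 for Gpx4.

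Cells just under the filter, with 500 to 2000 gene UMIs, had 2125 CPM for the 10 genes together (39 cells, 65 UMIs) in the multichamber study, and cells just inside it 2168 CPM (11 cells, 26 UMIs). In the other study 3 cells lay just under the filter and 0 just inside it.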
